A study of Bos taurus with 18 samples.

Results

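The 9 tight junction genes described here were the claudins CLDN1, CLDN3, CLDN4, CLDN7 and CLDN12, occludin (OCLN), junctional adhesion molecule A (F11R), zonula occludens 1 (TJP1) and cingulin (CGN). They were taken by name from a count table of 30642 genes measured in the cell line MAC-T, which was derived from the mammary epithelium of a cow and immortalised, and all 9 were among the 15158 genes with enough reads to be tested. The 18 libraries formed 6 groups of 3, each group holding replicate numbers 1, 2 and 3. Undifferentiated cells stayed in basal medium, which already held 5 µg/ml insulin, 1 µg/ml hydrocortisone and 10% fetal bovine serum. Differentiated cells were kept in lactogenic medium, made from the basal medium with 5% serum, 5 µg/ml ovine prolactin and 10 µg/ml dexamethasone. The labels do not say whether this serum replaced that of the basal medium or came on top of it, so the media may also differ in serum. All groups were cultured for 4 days at 37 °C and detached with trypsin and EDTA.

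Cells that were never heated formed the groups NHSUD (undifferentiated) and NHSD (differentiated). The heated groups were undifferentiated and differentiated cells held at 42 °C for 1 h before collection (HSUD and HSD), and heated differentiated cells returned to 37 °C for 2 h (D2R) or 6 h (D6R). Within each repeat of the experiment, both unheated groups shared a plate, both heated groups another and both recovery groups a plate of their own. Heat and recovery therefore cannot be told apart from the plate, whereas the medium was compared within plates. Each library held pooled RNA of 2 technical replicates. The p-values measure the spread between libraries within groups, estimated over all 6 groups together. Where the fit also held the replicate number, they measure the spread left after group and replicate number.

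Tight junctions seal the space between neighbouring epithelial cells near their apical surface. Claudins form the strands and set which solutes pass; CLDN1, CLDN3 and CLDN4 are counted among the sealing claudins, whereas CLDN12 has been linked to the passage of calcium. Occludin and the immunoglobulin-like adhesion molecule encoded by F11R are the other membrane proteins measured here. The scaffold protein ZO-1, encoded by TJP1, and the adaptor cingulin tie these membrane proteins to actin and myosin. In the mammary gland the junctions are leaky in pregnancy and close with the onset of milk secretion, and glucocorticoids tighten them in cultured mammary epithelial cells. The undifferentiated controls of this study also received a glucocorticoid, hydrocortisone.

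Library totals ran from 40.9 to 61.2 M counts. HSPA1A, an inducible heat shock chaperone, averaged 403 CPM (counts scaled to a common library total) in NHSUD and 426.6 CPM in NHSD, against 8293 CPM in HSUD, 7280 CPM in HSD, 2740 CPM in D2R and 859.3 CPM in D6R, which matched the labels. The epithelial identity was checked through the keratins KRT8 (mean 3888 CPM), KRT18 (2220 CPM) and KRT5 (12030 CPM) and through EPCAM (112.3 CPM). Of the remaining epithelial markers, the luminal genes KRT19 and CDH1 averaged 6.515 and 209.6 CPM. The basal genes KRT14, TP63, ACTA2 and CDH3 averaged 440.1, 57.29, 139.1 and 94.05 CPM. The leukocyte genes PTPRC and LYZ, the endothelial genes CDH5 and KDR and the fibroblast collagens COL1A1 and COL1A2 were at or near 0, with means no higher than 0.1006 CPM. Of the other listed markers, the fibroblast genes DCN and PDGFRA averaged 588.3 and 7.84 CPM, the endothelial gene VWF 1.94 CPM and the leukocyte gene CD68 1.23 CPM, and they were present in every library. PDGFRB, LUM, PECAM1, CLDN5 and CSF1R averaged at most 0.509 CPM.

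All values per library are CPM relative to the library total scaled by TMM factors. Gene lengths were not used, so levels are compared between libraries and never between genes. Over the 18 libraries, 8 of the 9 genes were present throughout. CLDN1 lay between 69.5 and 131 CPM, CLDN4 between 65.5 and 214 CPM, F11R between 97.2 and 130 CPM, OCLN between 79.7 and 101 CPM and TJP1 between 48.2 and 97.3 CPM. CGN lay between 22.4 and 39.6 CPM, CLDN12 between 8.80 and 16.3 CPM and CLDN3 between 3.91 and 11.2 CPM. CLDN7 had 157 counts in the 18 libraries together, with 0 to 16 counts per library. It was at 0 in HSD replicate 3 and D2R replicate 3, where a count of 0 allows up to 0.0676 and 0.0748 CPM (3 counts, counting error only). No group difference of CLDN7 could be read at this depth.

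The genes differed in how much they varied. The coefficient of variation over the 18 libraries was 6.57% for OCLN and 6.98% for F11R, which placed them at the 0.884 and 1.41 percentiles of all tested genes, whose median was 20.8%. CLDN4 (32.4%) and CLDN3 (30.4%) varied most among the 8 genes present throughout. CGN (16.1%), CLDN12 (17.8%), CLDN1 (18.6%) and TJP1 (18.8%) lay between them. The spread of CLDN4 and CLDN3 amounted to a ratio of 3.28 and 2.86 between the highest and lowest library, against 1.27 for OCLN and 1.33 for F11R.

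**Figure D1:**
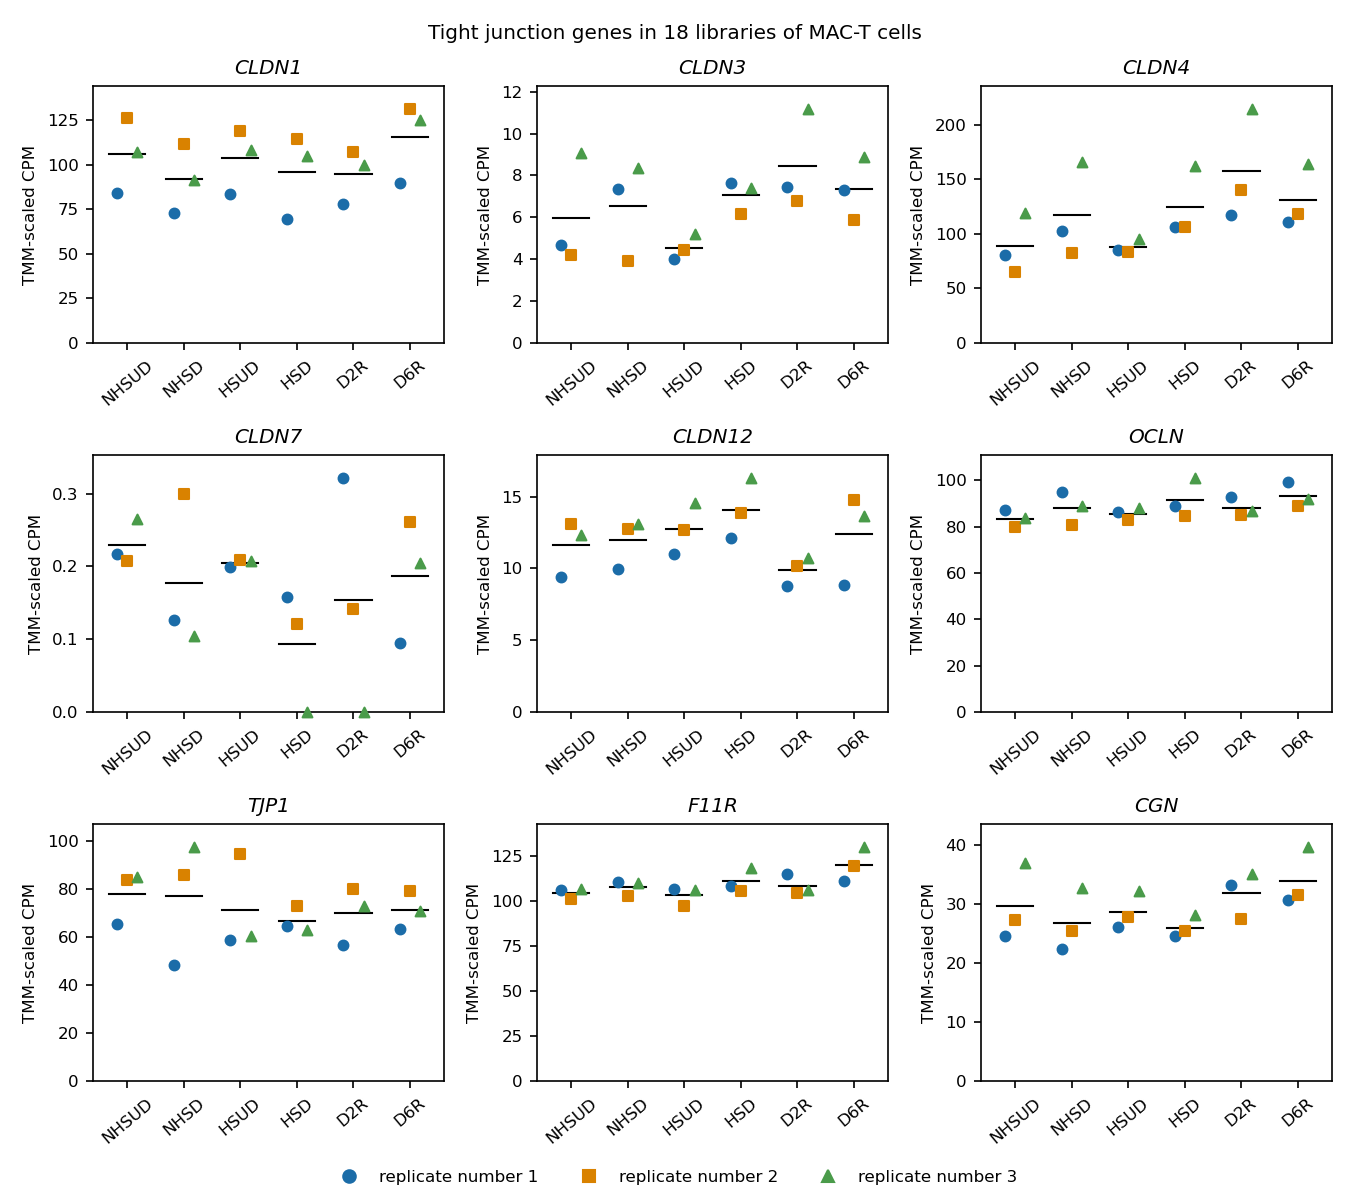
TMM-scaled CPM (vertical axes, linear and starting at 0) of the 9 genes in the 6 groups; each point is a library, its colour and shape give the replicate number, and the black bar is the group mean. OCLN and F11R stay within narrow bands, CLDN1 is lowest in replicate number 1 in every group, and CLDN7 is close to 0 throughout.

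The order of the group means differed between genes. CLDN3 and CLDN4 shared the same order, D2R, D6R, HSD, NHSD, NHSUD and HSUD from high to low. CLDN1, OCLN, F11R and CGN had their highest mean in D6R, CLDN12 in HSD, and TJP1 in NHSUD. The highest mean was 1.86 times the lowest for CLDN3, 1.78 times for CLDN4 and 1.42 times for CLDN12, and between 1.12 times (OCLN) and 1.30 times (CGN) for the other genes present throughout. In all 45 pairs of neighbouring groups in these orders, the libraries of the neighbours overlapped. The neighbours were set by the means of these same libraries, so nothing is concluded from this overlap. Some groups further apart in these orders did not overlap, as given below.

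Lactogenic medium was compared with basal medium first. This compares the media as a whole, and whether the cells had differentiated was not tested. CLDN4 was higher in every lactogenic library than in the basal library of the same replicate number and heat state, but neither comparison passed the test. In unheated cells CLDN4 measured 81.0, 65.5 and 119 CPM in NHSUD (88.5 ± 27.7, SD, n = 3) and 102, 82.7 and 166 CPM in NHSD (117 ± 43.8), in the order of replicate numbers 1, 2 and 3. In heated cells it measured 85.6, 83.8 and 95.7 CPM in HSUD (88.4 ± 6.43) and 106.1, 106.4 and 162 CPM in HSD (125 ± 32.4). The unheated groups overlapped because replicate 3 of NHSUD exceeded replicates 1 and 2 of NHSD, whereas all HSD libraries lay above all HSUD libraries.

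The log2 fold change of CLDN4 was 0.40 ± 0.28 (SE; 95% interval -0.19 to 1.00) without heat and 0.50 ± 0.28 (-0.09 to 1.09) with heat, each with an adjusted p of 1 in edgeR's quasi-likelihood test. P-values were adjusted over the 15158 tested genes by the Benjamini-Hochberg method, and a call needed an adjusted p under 0.05. The differences within a replicate number were 0.34, 0.34 and 0.48 (log2) without heat and 0.31, 0.34 and 0.76 with heat. Single libraries moved these fold changes: without heat it was 0.055 without NHSD replicate 3, 0.22 without NHSUD replicate 2 and 0.68 without NHSUD replicate 3, and with heat it was 0.27 without HSD replicate 3. These fits did not hold the replicate number, so a left-out library also left its partner of the same number unmatched. Such shifts therefore do not show that the differences within replicate numbers hung on 1 library.

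CLDN3, which lies next to CLDN4 in the gene order of the RefSeq assembly ARS-UCD2.0, did not overlap between media in heated cells and did so in unheated ones. In heated cells it measured 4.02, 4.42 and 5.19 CPM in HSUD (4.54 ± 0.598, SD, n = 3) and 7.65, 6.15 and 7.41 CPM in HSD (7.07 ± 0.807), with every HSD library higher. Without heat it measured 4.66, 4.20 and 9.07 CPM in NHSUD and 7.37, 3.91 and 8.37 CPM in NHSD, which overlapped widely. The log2 fold change was 0.64 ± 0.31 (SE; -0.02 to 1.30) with heat and 0.13 ± 0.31 (-0.52 to 0.78) without, both with an adjusted p of 1 in edgeR. The difference between these fold changes, tested as the interaction of heat and medium, was 0.51 ± 0.44 (adjusted p = 1, edgeR), so the medium was not shown to act differently on CLDN3 in heated cells. This difference was 0.076 without NHSUD replicate 3 and 0.25 without NHSD replicate 2.

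The other 6 genes present throughout were within the spread of the libraries in both comparisons of media. CLDN1 was lower in lactogenic medium in all 6 pairs of libraries, with differences of -0.21, -0.17 and -0.23 (log2) without heat and -0.27, -0.06 and -0.05 with heat, and with a fold change of -0.20 ± 0.22 and -0.11 ± 0.22 (log2 ± SE). CGN was also lower in 6 of 6 pairs, by fitted values of -0.14 ± 0.18 in both heat states. OCLN (0.08 ± 0.10 and 0.10 ± 0.10) and F11R (0.05 ± 0.10 and 0.10 ± 0.10) were higher in 6 of 6 pairs, by small amounts. With CLDN4, 5 of the 9 genes thus kept their direction in all 6 pairs, against 11.2% of all tested genes. Of the others, TJP1 and CLDN12 had fitted log2 fold changes between -0.09 and 0.15.

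No junction gene passed the test for the medium in unheated cells (0 of 9) or in heated cells (0 of 9), and neither did any other gene: 0% of the 15158 genes were called in each of these comparisons. DESeq2 also called 0 of 9 in both. At an unadjusted p under 0.05, edgeR gave 0 of 9 in both, against 253 and 267 of all tested genes. Without overlap between the groups were 0 of 9 junction genes in unheated cells, where the share of all tested genes was 5.75%, and 3 of 9 in heated cells (CLDN3 and CLDN4 higher, CLDN7 lower), against 5.52%. CLDN7 entered this count with 8, 10 and 8 counts in HSUD and 8, 6 and 0 in HSD, too few to be read as a difference. In unheated cells 5 of 9 junction genes kept their direction in 3 of 3 replicate numbers, against 35.8% of all tested genes, and in heated cells 8 of 9, all but TJP1 and with CLDN7 at these low counts among them, did so, against 27.3%. With the replicate number in the fit, described next, 0 of 9 were called in either comparison, against 0.0066% and 0.0198% of all tested genes. At an unadjusted p under 0.05 that edgeR fit gave 2 of 9 in each, against 805 and 962 of all tested genes. These genes were measured in the same libraries, so their directions are not independent.

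The replicate numbers paired the libraries across groups. An alternative fit therefore held a term for the replicate number, here called a replicate block, and it changed 1 call on the medium. When both media comparisons were averaged, a contrast chosen after the values had been seen, CLDN4 was 0.45 ± 0.20 (log2 ± SE, adjusted p = 1) without the block and 0.42 ± 0.09 (0.24 to 0.61, adjusted p = 0.0208) with it in edgeR, so that it rose in the blocked fit. With the block, 0.805% of all tested genes were called in this contrast, and without it 0%. CLDN3 reached 0.39 ± 0.14 (adjusted p = 0.246) and CLDN1 -0.16 ± 0.06 (adjusted p = 0.241) with the block in edgeR. In each media comparison alone, the block narrowed the intervals without a call. Without heat, blocked edgeR gave CLDN4 0.39 ± 0.12 (0.13 to 0.65, adjusted p = 0.588) and CLDN1 -0.20 ± 0.08 (-0.37 to -0.04, adjusted p = 0.835). With heat it gave CLDN4 0.46 ± 0.12 (0.20 to 0.72, adjusted p = 0.304) and CLDN3 0.64 ± 0.20 (0.23 to 1.05, adjusted p = 0.455). In bulk RNA, a difference in the number of cells with CLDN4 RNA and a difference in its amount per cell cannot be told apart.

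The blocked call of CLDN4 rested on several libraries. It was lost in 6 of 18 fits that each left out 1 library. Its adjusted p was 0.0658 without NHSUD replicate 2, 0.0619 without NHSD replicate 1, 0.0741 without NHSD replicate 3, 0.0743 without HSUD replicate 3, 0.0690 without HSD replicate 2 and 0.0680 without HSD replicate 3 in edgeR. The fold change stayed between 0.35 and 0.48 (log2) over the 18 fits. Fitted on the compared groups alone with the block, the call was kept (adjusted p = 0.0356, edgeR). DESeq2 with the block also called it (adjusted p = 0.00273), among 299 genes called in this contrast. The summed level of the 5 basal epithelial markers (KRT5, KRT14, TP63, ACTA2, CDH3) ranged from 12520 to 17290 CPM in NHSUD and from 11570 to 13480 CPM in NHSD, and from 12510 to 18720 CPM in HSUD and from 10510 to 15870 CPM in HSD. Its part in the CLDN4 values was not tested.

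**Figure D2:**
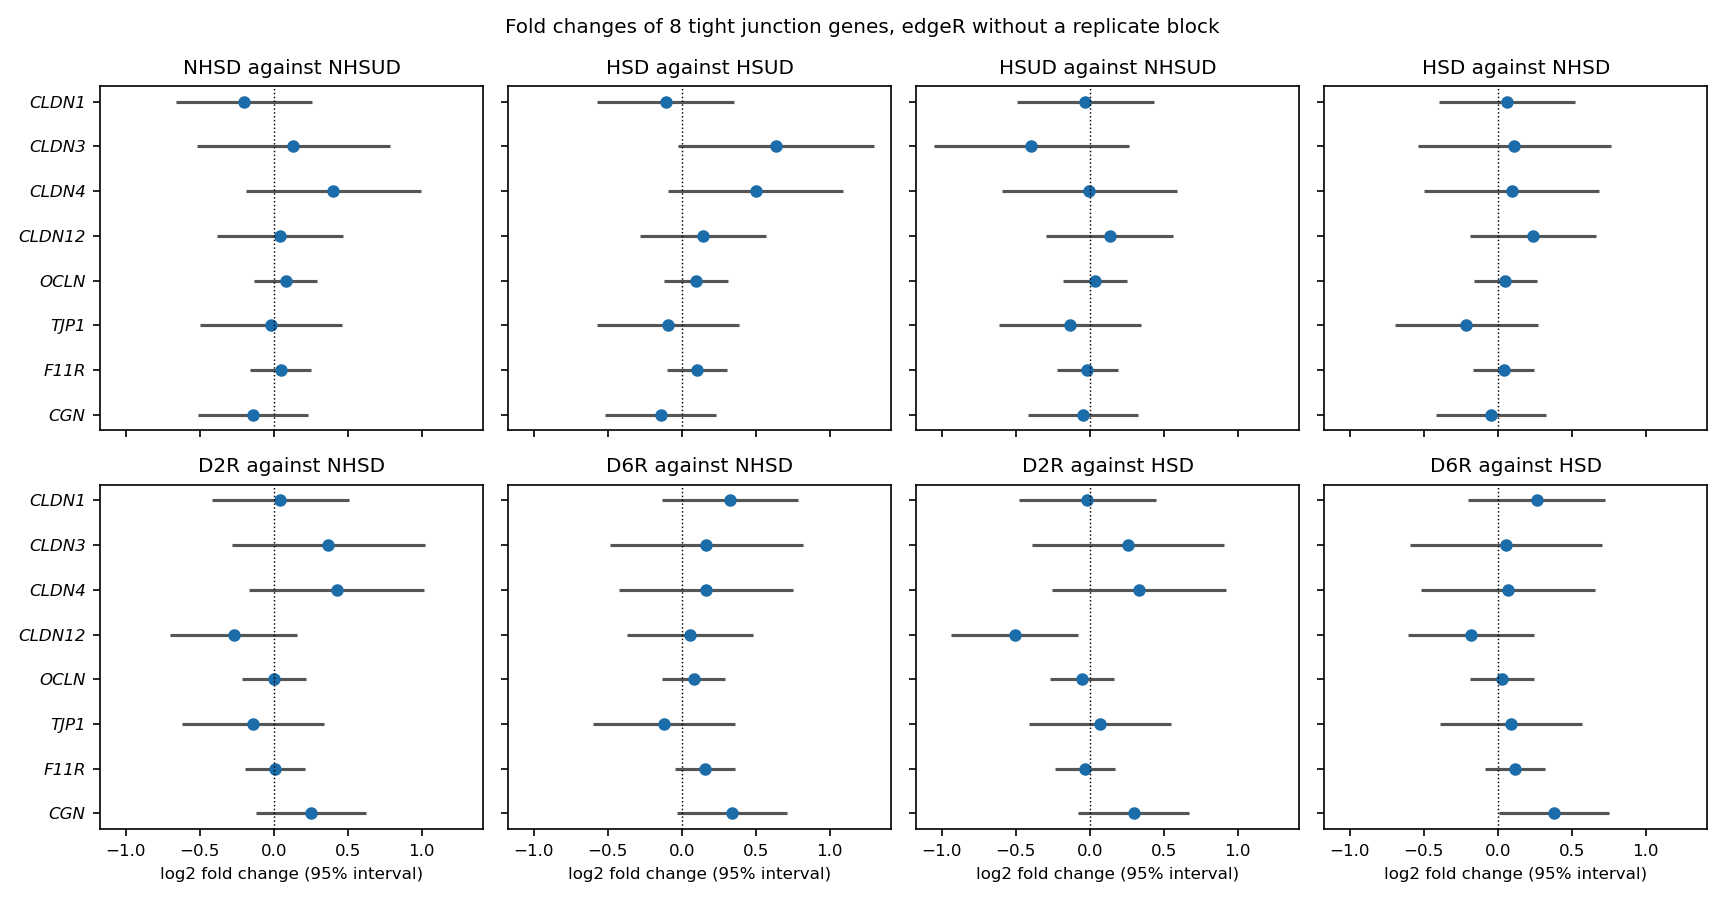
Log2 fold changes (horizontal axes; points) with 95% intervals (bars) of the 8 genes present throughout, in 8 comparisons of 3 against 3 libraries from edgeR without a replicate block. Most intervals cross 0, those of OCLN and F11R are the narrowest, and the intervals of CLDN12 in D2R against HSD and of CGN in D6R against HSD do not reach 0, although neither passed adjustment.

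Heat for 1 h left the junction genes within the spread of the libraries. OCLN measured 87.0, 79.7 and 83.9 CPM in NHSUD and 86.3, 82.7 and 88.0 CPM in HSUD, and 94.97, 80.9 and 89.0 CPM in NHSD and 89.1, 84.5 and 101 CPM in HSD. F11R measured 106, 101 and 107 CPM in NHSUD and 107, 97.2 and 106 CPM in HSUD. The groups overlapped in each case.

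The intervals of the fit without the block show what size of change that fit could have missed. For OCLN the log2 fold change with heat was 0.04 (95% interval -0.18 to 0.25) in basal and 0.05 (-0.16 to 0.27) in lactogenic medium. For F11R it was -0.02 (-0.22 to 0.19) and 0.04 (-0.17 to 0.24). For CLDN1 it was -0.03 (-0.49 to 0.43) and 0.06 (-0.40 to 0.53), and for CGN -0.05 (-0.42 to 0.33) in both media. For CLDN4 it was -0.003 (-0.59 to 0.59) and 0.09 (-0.50 to 0.68), a wider range. With the block these intervals were narrower for CLDN1 (-0.194 to 0.14 in basal and -0.113 to 0.221 in lactogenic medium). The same was seen for CLDN4 (-0.209 to 0.305 and -0.138 to 0.373).

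CLDN12 was 0.14 ± 0.20 (log2 ± SE) in basal and 0.24 ± 0.20 in lactogenic medium. It measured 9.99, 12.8 and 13.1 CPM in NHSD and 12.1, 13.9 and 16.3 CPM in HSD, higher in 3 of 3 replicate numbers but overlapping. TJP1, the scaffold gene, was -0.13 ± 0.23 and -0.21 ± 0.23. Its libraries were uneven, with 48.2, 85.9 and 97.3 CPM in NHSD and 64.4, 72.8 and 62.7 CPM in HSD, so that replicate number 1 was higher and the other two were lower after heat. CLDN3 in basal medium was -0.40 ± 0.31, a value that rested on NHSUD replicate 3 and became 0.035 without it.

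None of the 9 genes was called for heat in basal medium, against 0.125% of all tested genes, or in lactogenic medium, against 0.099%. DESeq2 called 0 of 9 in both, and edgeR gave 0 of 9 at an unadjusted p under 0.05 in both, against 638 and 670 of all tested genes. Groups without overlap were found for 0 of 9 in both comparisons, against 7.62% and 7.9% of all tested genes. The direction was kept in 3 of 3 replicate numbers by 0 of 9 in basal medium, against 34.4%, and by 1 of 9 (CLDN12) in lactogenic medium, against 30.4%. With the block 0 of 9 were called in either, against 0.633% and 0.554%. The interaction of heat and medium was called for 0 of 9 genes and for 0% of all tested genes, with 0 of 9 and 88 of all tested genes at an unadjusted p under 0.05.

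During recovery no junction gene passed the test without the block, and CLDN1 passed it with the block. CLDN12, CGN and F11R each had 1 comparison in which the groups did not overlap, 1 of 9 genes each time, near the share of all tested genes (9.03% in D2R against HSD, 14% in D6R against HSD and 9.7% in D6R against NHSD). After 2 h, CLDN12 measured 8.80, 10.2 and 10.7 CPM (9.89 ± 0.983, SD, n = 3), below every library of HSD with 12.1, 13.9 and 16.3 CPM (14.1 ± 2.09). The log2 fold change against HSD was -0.51 ± 0.20 (SE; -0.94 to -0.08), with an adjusted p of 1 in edgeR. Within replicate numbers the differences were -0.46, -0.45 and -0.60. With the block the adjusted p was 0.109 in edgeR and 0.0121 in DESeq2, so the call rested on the tool. Over all genes, DESeq2 with the block called 158 in this comparison and edgeR with it 59. Against unheated NHSD, whose libraries overlapped with D2R, the value was -0.27 ± 0.20. After 6 h, CLDN12 measured 8.83, 14.8 and 13.6 CPM, and replicate number 1 stayed at its 2 h level while the other two were higher.

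CGN, whose protein binds ZO-1 and the actomyosin ring, had its highest means during recovery. It measured 22.4, 25.3 and 32.7 CPM in NHSD, 24.5, 25.4 and 28.1 CPM in HSD, 33.2, 27.5 and 35.1 CPM in D2R, and 30.6, 31.5 and 39.6 CPM in D6R. All 3 D6R libraries lay above all 3 HSD libraries, and D6R overlapped with NHSD through NHSD replicate 3. The log2 fold change of D6R was 0.38 ± 0.18 (SE; 0.01 to 0.76; adjusted p = 0.581, edgeR) against HSD and 0.34 ± 0.18 (-0.03 to 0.71; adjusted p = 0.881, edgeR) against NHSD. Without D6R replicate 3 these were 0.26 and 0.21, and the value against NHSD was 0.22 without NHSD replicate 1 and 0.51 without NHSD replicate 3. With the replicate block the adjusted p was 0.0582 and 0.107 in edgeR, which was not called either, whereas DESeq2 with the block called it in both (adjusted p = 0.0158 and 0.0333). Over all genes, DESeq2 with the block called 1290 against HSD and 691 against NHSD, where edgeR with it called 496 and 220.

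In edgeR, CLDN1 was called in D6R against NHSD with the block and in no other comparison of groups. It measured 72.9, 112 and 91.4 CPM in NHSD (92.0 ± 19.5, SD, n = 3) and 89.7, 131 and 125 CPM in D6R (115 ± 22.4). These groups overlapped through D6R replicate 1, which lay below NHSD replicates 2 and 3. Each D6R library exceeded the NHSD library of its number, by 0.30, 0.23 and 0.46 (log2). The fold change was 0.33 ± 0.22 (log2 ± SE, adjusted p = 0.939) without the block and 0.33 ± 0.08 (0.16 to 0.50, adjusted p = 0.0433) with it in edgeR. Without the block it was 0.18 without NHSD replicate 1 and 0.50 without NHSD replicate 2. With the block CLDN1 was 0.27 ± 0.08 against HSD (adjusted p = 0.0622, edgeR, and 0.0155 in DESeq2 with the block) and 0.27 ± 0.08 against D2R (adjusted p = 0.224, edgeR).

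The blocked call of CLDN1 was close to the threshold. It held in 5 of 18 fits that each left out 1 library (HSUD replicate 2, HSD replicates 1 and 3, and D2R replicates 1 and 2) and was lost in the other 13. The adjusted p rose to 0.265 without D6R replicate 3, 0.0903 without D6R replicate 2 and 0.0511 without D6R replicate 1. It was 0.0967, 0.137 and 0.173 without NHSD replicates 1, 2 and 3, and between 0.0501 and 0.0656 in the 7 other fits (NHSUD replicates 1, 2 and 3, HSUD replicates 1 and 3, HSD replicate 2, D2R replicate 3). The fold change stayed between 0.29 and 0.37 (log2) over the 18 fits. Fitted on NHSD and D6R alone, the blocked adjusted p was 0.0898 in edgeR.

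F11R measured 110.8, 103 and 110.1 CPM in NHSD, 108, 106 and 119 CPM in HSD, 115, 104 and 106 CPM in D2R, and 111.3, 120 and 130 CPM in D6R. The D6R libraries lay above the NHSD libraries without overlap, although replicate number 1 differed by only 0.01 (log2). The log2 fold change was 0.16 ± 0.10 (SE; -0.05 to 0.36; adjusted p = 0.932, edgeR). OCLN was 0.08 ± 0.10 in the same comparison, with an interval of -0.13 to 0.30.

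CLDN4 and CLDN3 had their highest means at 2 h. CLDN4 measured 118, 140 and 214 CPM in D2R (157 ± 50.6, SD, n = 3) and 111, 119 and 164 CPM in D6R (131 ± 28.8), both overlapping with NHSD and HSD. The log2 fold change in D2R was 0.43 ± 0.28 (SE; -0.16 to 1.02) against NHSD and 0.33 ± 0.28 (-0.26 to 0.92) against HSD. Against NHSD it was 0.14 without D2R replicate 3, 0.24 without NHSD replicate 2 and 0.78 without NHSD replicate 3, and against HSD it was 0.046 without D2R replicate 3, 0.50 without D2R replicate 1 and 0.57 without HSD replicate 3. With the block CLDN4 in D2R was 0.44 ± 0.12 against NHSD (adjusted p = 0.169) and 0.32 ± 0.12 against HSD (adjusted p = 0.411, edgeR). Without the block, D6R against D2R was -0.26 ± 0.28 and became 0.024 without D2R replicate 3, which left D6R replicate 3 unmatched. Within replicate numbers these differences were -0.08, -0.24 and -0.38 (log2). With the block the value was -0.24 ± 0.12 (-0.50 to 0.01, adjusted p = 0.442, edgeR). CLDN3 measured 7.46, 6.79 and 11.2 CPM in D2R and 7.32, 5.85 and 8.87 CPM in D6R, and it was 0.37 ± 0.31 in D2R against NHSD, a value of 0.12 without D2R replicate 3, 0.11 without NHSD replicate 2 and 0.60 without NHSD replicate 3. TJP1 stayed within -0.14 and 0.09 (log2) in all recovery comparisons, with standard errors of 0.23.

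Over the recovery comparisons no junction gene was called without the block. This held for D2R against NHSD (0 of 9, against 0.0792% of all tested genes), D6R against NHSD (0 of 9, 0.0132%), D2R against HSD (0 of 9, 0.0528%), D6R against HSD (0 of 9, 0.066%) and D6R against D2R (0 of 9, 0%). DESeq2 without the block also called 0 of 9 in each. At an unadjusted p under 0.05 edgeR without the block gave CLDN12 in D2R against HSD, CGN in D6R against HSD and no other of the 9 genes. Of all 15158 tested genes, 535 and 1264 passed this limit in these comparisons. In D2R against NHSD, D6R against NHSD and D6R against D2R, 467, 920 and 585 did. In the blocked fit, 3 of 9 passed it in D2R against NHSD and D2R against HSD, against 1539 and 1341 of all tested genes. In D6R against NHSD, D6R against HSD and D6R against D2R, 2 of 9 passed it there, against 2397, 3417 and 1808. With the block, 1 of 9 (CLDN1) was called in D6R against NHSD, against 1.45% of all tested genes, and 0 of 9 in D2R against NHSD (0.224%), D2R against HSD (0.389%), D6R against HSD (3.27%) and D6R against D2R (0%). Groups without overlap were found for 1 of 9 in D6R against NHSD (F11R, against 9.7%), D2R against HSD (CLDN12, against 9.03%) and D6R against HSD (CGN, against 14%), and for 0 of 9 in D2R against NHSD (6.6%) and D6R against D2R (7.71%). The direction was kept in 3 of 3 replicate numbers by 4 of 9 in D2R against NHSD (30.3% of all tested genes), 4 in D6R against NHSD (40.7%), 3 in D2R against HSD (34.2%), 4 in D6R against HSD (41.8%) and 5 in D6R against D2R (35.3%). NHSD and HSD each served as control in more than 1 of these comparisons, so the values are not independent of each other.

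**Figure D3:**
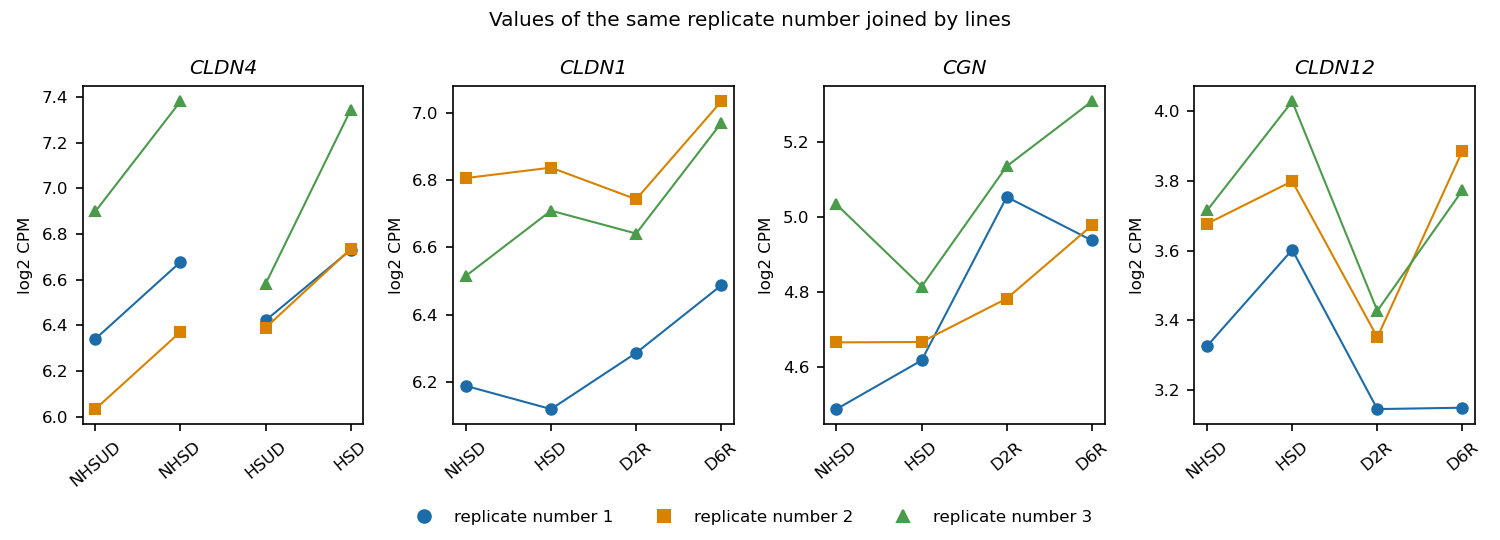
Log2 CPM (vertical axes) of CLDN4 in basal and lactogenic medium, and of CLDN1, CGN and CLDN12 in the differentiated groups; lines join libraries of the same replicate number. CLDN4 is higher in lactogenic medium in all 6 pairs, CLDN1 in D6R lies 0.23 to 0.46 above NHSD in each replicate number, and CLDN12 in D2R lies 0.45 to 0.60 below HSD.

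The genes were also compared between the replicate numbers. Of the 9 genes, 6 differed between replicate numbers in edgeR (adjusted p = 7.23e-07 for CLDN1, 8.59e-06 for CLDN4, 0.00109 for CGN, 0.00117 for CLDN12, 0.00143 for CLDN3 and 0.00322 for TJP1), against 53.6% of all tested genes, so this share was near the background. OCLN (adjusted p = 0.112), F11R (0.275) and CLDN7 (0.499) did not pass this edgeR test. DESeq2 called 7 of the 9, among 8428 genes called.

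The direction depended on the gene. CLDN1 had a mean of 79.6 ± 7.61 CPM in replicate number 1 (SD, n = 6), 118 ± 9.04 CPM in number 2 and 106 ± 11.3 CPM in number 3. Its libraries of number 1 (69.5 to 89.7 CPM) lay below all others, a separation seen in 9.26% of all tested genes and in no other of the 9. TJP1 was also lowest in number 1 (59.4 ± 6.47 CPM, against 82.7 ± 7.34 and 74.8 ± 14.1 CPM), and so was CLDN12 (10.0 ± 1.31 CPM, against 12.9 ± 1.55 and 13.4 ± 1.90 CPM).

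CLDN4, CLDN3 and CGN were highest in number 3. CLDN4 averaged 101 ± 14.4, 99.5 ± 27.4 and 154 ± 41.4 CPM in numbers 1, 2 and 3 (SD, n = 6), which put number 3 above number 1 by 0.58 ± 0.09 (log2 ± SE). CLDN3 averaged 6.41 ± 1.62, 5.22 ± 1.19 and 8.35 ± 1.98 CPM, and CGN 26.9 ± 4.13, 27.5 ± 2.24 and 34.1 ± 4.03 CPM. The summed basal epithelial markers ranged from 9567 to 12520 CPM in number 1, from 9011 to 14430 CPM in number 2 and from 13480 to 18720 CPM in number 3, and all 5 of them differed between the numbers in edgeR (adjusted p from 8.8e-09 to 0.000153). The 6 fibroblast markers, most of whose sum was DCN, ranged from 509.9 to 617.4, from 426.7 to 597.3 and from 621.3 to 820.2 CPM. The part of these markers in the junction gene values was not tested.

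Split by source, the replicate number took up 79.5% of the spread of CLDN1 in log2 CPM, 55.9% of TJP1, 53.2% of CLDN12, 49.2% of CGN, 43.6% of CLDN4, 39.6% of CLDN3, 39.1% of OCLN and 19.6% of F11R, against a median of 34.9% over all tested genes. The group took up 55.0% for F11R, 47.0% for CLDN4, 41.4% for CLDN3 and 7.23% for TJP1, against a median of 27.6%. For CLDN1 the remainder was 3.33%. These are raw shares and not tests, and 6 groups take up more of the spread than 3 replicate numbers even without an effect. F11R was called in no comparison of groups.

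**Figure D4:**
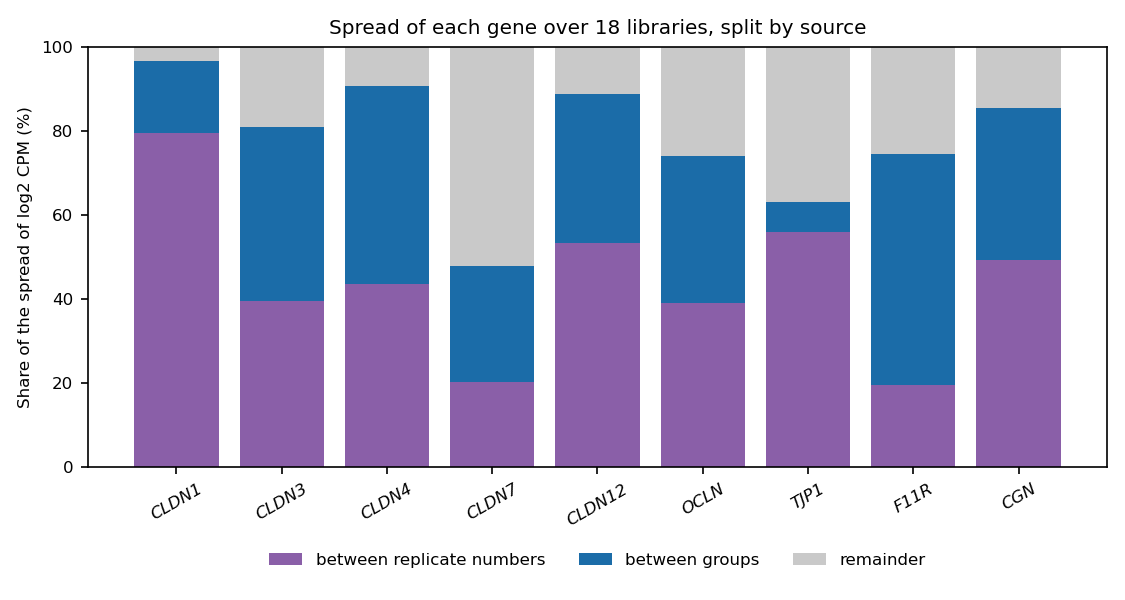
Share of the spread (sum of squares, vertical axis in percent) of log2 CPM of each gene over 18 libraries that lay between replicate numbers, between groups and in the remainder. CLDN1 lies mostly between replicate numbers (79.5%), F11R mostly between groups (55.0%), and CLDN7 mostly in the remainder (52.1%). The shares are not adjusted for how many groups and replicate numbers there were.

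CLDN3 and CLDN4 followed each other over the libraries, with correlations of 0.86 (Pearson) and 0.83 (Spearman) in log2 CPM (n = 18), and 0.81 (Pearson) once the means of the replicate numbers were removed. OCLN and F11R gave 0.69, 0.86 and 0.66 by the same measures. CLDN1 and TJP1 gave a Pearson correlation of 0.63 that became -0.13 once the means of the replicate numbers were removed, and CLDN1 and CLDN12 0.63 that became 0.09. OCLN and TJP1 were opposed (-0.62, and -0.42 after removal). These are descriptions, since the libraries share groups, replicate numbers and scaling.

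**Figure D5:**
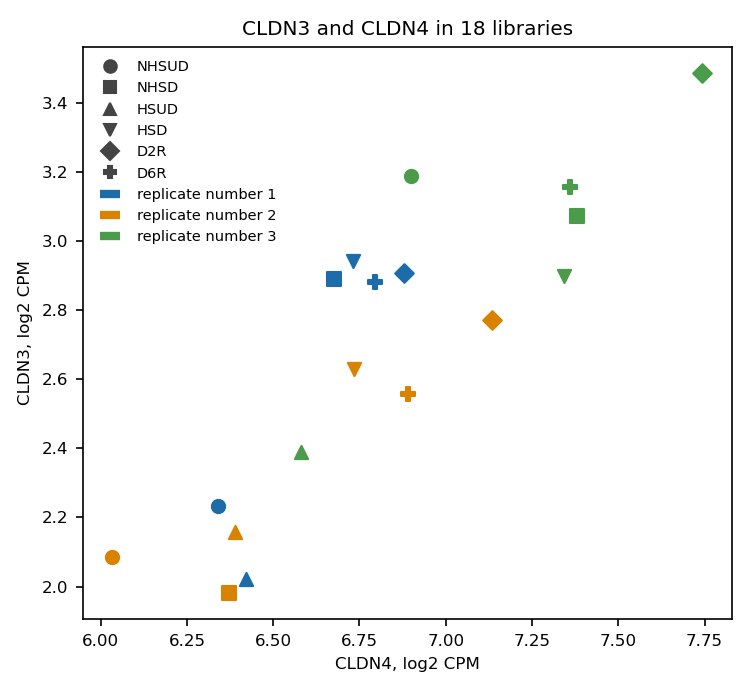
CLDN3 against CLDN4 in log2 CPM (both axes) in the 18 libraries; the shape gives the group and the colour the replicate number. The libraries run from low values of both genes, held by HSUD and by replicate numbers 1 and 2 of NHSUD, to high values of both in D2R replicate 3 (Pearson correlation 0.86).

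Genes with the most similar pattern were looked up among tested genes with a mean of at least 5 CPM, by Pearson correlation over the 18 libraries. For CLDN4 they were CFLAR (0.925) and ARHGAP24 (0.921), and for CLDN3 CDKN2B (0.881) and CLDN4 itself (0.864). For CLDN1 they were ZNF445 (0.899) and SLC25A44 (0.897), and for CLDN12 FOXJ3 (0.871) and CYP27B1 (0.854). For OCLN they were AP1AR (0.850) and SLC17A5 (0.847), and for F11R B4GALT4 (0.911) and NSUN3 (0.892). For TJP1 they were KIAA1217 (0.971) and AP3D1 (0.961), and for CGN GRK5 (0.930) and SOX4 (0.926). The correlations of TJP1 exceeded those of the other 7 genes compared, and the Spearman values of all 16 pairs lay between 0.810 and 0.955.

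The wider junction was followed through 42 other tight junction genes. The table held 41 of them, and 26 had enough reads to be tested. Genes with high mean levels among them were YBX3, a Y-box factor that binds ZO-1 (387.7 CPM), PATJ, a scaffold of the Crumbs polarity complex (106.2 CPM), and the polarity gene PARD3 (91.7 CPM). Of the other claudins, CLDN8, CLDN15 and CLDN18 were tested at means of 0.152, 0.247 and 0.153 CPM. CLDN10 and CLDN14 had 0 counts in all 18 libraries, CLDN2 had 2 and CLDN5, an endothelial claudin, had 8. CLDN1, CLDN3, CLDN4 and CLDN12 were thus the claudins with more than traces of RNA among those listed.

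None of the 26 was called in any of the 10 comparisons of groups, with or without the block in edgeR. At an unadjusted p under 0.05 without the block, MPP5, a polarity scaffold also known as PALS1, stood at 0.33 ± 0.12 (log2 ± SE, adjusted p = 0.738) in D6R against NHSD, and MAGI3 at 0.43 ± 0.20 and PARD6A at 0.95 ± 0.43 in D6R against HSD (adjusted p = 0.588 and 0.578, edgeR). These 3 were chosen after their values were seen, and 920 and 1264 of all tested genes passed the same limit in D6R against NHSD and against HSD. The median log2 fold change of the 26 was 0.02 for the medium in unheated and in heated cells (-0.001 and -0.03 over all tested genes), -0.09 for heat in basal medium (9 higher, 17 lower; 0.01 over all) and -0.06 in lactogenic medium (7 higher, 19 lower; -0.003 over all), 0.09 in D6R against NHSD (-0.002 over all) and 0.19 in D6R against HSD (0.01 over all). The medians of the 9 were 0.04, 0.10, -0.03, 0.05, 0.16 and 0.09 in the same comparisons.

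Between replicate numbers, 16 of the 26 (61.5%) differed in edgeR, against 53.6% of all tested genes. The smallest p-values were those of the polarity gene PARD6G (7.57 ± 1.06, 7.19 ± 1.06 and 14.3 ± 3.43 CPM in numbers 1, 2 and 3, SD, n = 6), of CGNL1, which encodes paracingulin (3.13 ± 1.22, 4.41 ± 0.949 and 7.52 ± 2.10 CPM), of JAM3, a relative of F11R (4.91 ± 0.806, 2.80 ± 0.458 and 2.27 ± 0.390 CPM), and of PARD3 (74.5 ± 7.06, 94.6 ± 2.84 and 106 ± 9.08 CPM). PARD6G and CGNL1 were highest in number 3 like CLDN4, whereas JAM3 was highest in number 1.

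Among 23 tested regulators of the epithelial junction, 0 were called without the block and PRSS8 fell with it. PRSS8 encodes prostasin, a membrane-anchored serine protease. It measured 94.8, 112 and 99.5 CPM in NHSD, 86.4, 122 and 106 CPM in HSD and 68.8, 87.0 and 72.6 CPM in D6R. The D6R libraries lay below the NHSD libraries without overlap and overlapped with HSD through HSD replicate 1. With the block the log2 fold change was -0.43 ± 0.09 (SE, adjusted p = 0.0254) against NHSD and -0.45 ± 0.09 (adjusted p = 0.0149) against HSD, and without it the adjusted p was 0.752 and 0.497 in edgeR.

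The blocked calls of PRSS8 held in 13 and 14 of 18 fits without 1 library. Against NHSD, its adjusted p was 0.0940, 0.115 and 0.0879 without NHSD replicates 1, 2 and 3, and 0.0955 and 0.183 without D6R replicates 2 and 3 (edgeR). Against HSD, it was 0.0914 and 0.0918 without HSD replicates 2 and 3, and 0.0611 and 0.117 without D6R replicates 2 and 3. Fitted on the compared groups alone, the blocked adjusted p was 0.0419 against NHSD and 0.0676, no longer called, against HSD. With the block, 1 of 23 regulators was called in each of these comparisons, against 1.45% and 3.27% of all tested genes. Of the regulators, 12 of 23 (52.2%) differed between replicate numbers, led by SNAI2, a repressor of epithelial genes (27.6 ± 2.07, 31.4 ± 2.35 and 44.8 ± 8.09 CPM, SD, n = 6), SPINT2, PRSS8 and GRHL2.

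Genes of the neighbouring junctions were counted in the same way. Of 11 adherens junction genes and 10 desmosome genes, 0 were called in any comparison without the block. With it, NECTIN4, an adhesion gene of the adherens junction, rose in D6R against HSD by 1.21 ± 0.20 (log2 ± SE, adjusted p = 0.00373, edgeR), from 10.4, 8.11 and 19.7 CPM in HSD to 16.7, 22.8 and 50.7 CPM in D6R. These groups overlapped, each D6R library exceeded the HSD library of its number, and the call held in 18 of 18 fits without 1 library (largest adjusted p 0.0376). With the block, 1 of 11 adherens junction genes and 1 of 10 desmosome genes were called in this comparison, against 3.27% of all tested genes. Without the block the adjusted p of NECTIN4 was 0.497 in edgeR.

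DSG3, a desmosomal cadherin, rose with the block in the same comparison, by 0.42 ± 0.11 (log2 ± SE, adjusted p = 0.0464, edgeR), from 502.1, 513 and 780 CPM in HSD to 736, 629.7 and 1037 CPM in D6R. The call of DSG3 held in 6 of 18 fits without 1 library (NHSUD replicate 2, NHSD replicates 1 and 3, HSUD replicate 2, D2R replicates 1 and 2), and the adjusted p reached 0.228 without D6R replicate 3 and between 0.0528 and 0.156 in the other 11. Fitted on HSD and D6R alone with the block, the call of DSG3 was lost (adjusted p = 0.0643, edgeR) and that of NECTIN4 was kept (adjusted p = 0.0125). Between replicate numbers, 9 of 11 adherens junction genes (81.8%) and 6 of 10 desmosome genes (60%) differed, against 53.6% of all tested genes. CDH1, the gene of E-cadherin, averaged 151 ± 14.7 CPM in number 1, 232 ± 26.7 CPM in number 2 and 246 ± 23.6 CPM in number 3 (SD, n = 6), lowest in the same replicate number as CLDN1 and TJP1.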

How the data were processed

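Poly-A RNA of MAC-T cells was sequenced as read pairs. Per the labels' protocols, fastp 0.23.2 was used by the authors for trimming and STAR 2.7.9a for alignment to ARS-UCD 1.3, a bovine assembly. The submitters' processing notes name featureCounts 2.0.3, DESeq2 and limma without their roles. For strand and multi-mapping, settings were not given in the sources used here. The deposited table holds raw counts per gene, 1 column per library, with 0 columns left over. Of counts from 1 to 20, 72.7% were even, so both mates may each have been counted, and halved counts were an alternative. Gene names are those of the table. Of these, 24553 of 30642 were in the RefSeq table of ARS-UCD2.0, 9 of 9 junction genes among them, and no coordinates were used because the builds differ. Sequences were not used here.

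Genes were kept with filterByExpr (minimum count 10) and fitted in edgeR 4.0.16 (R 4.3.3, TMM, robust quasi-likelihood test, two-sided, 1 mean per group over 18 libraries, so that all groups share the spread). An adjusted p under 0.05 was called. Standard errors came from the F statistic and the 95% intervals from the t distribution with its total degrees of freedom (median 16.9). An exact permutation test of 3 against 3 cannot go below p = 0.1. Log2 CPM used a prior count of 2. The replicate test compared the fit with and without the replicate number.

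Per the labels, the experiment was run 3 times. Deviations from group means correlated positively in 45 of 45 pairs of same-numbered libraries (0.135 to 0.596, median of other pairs -0.199), so the numbers paired the libraries. No 2 libraries of a group were duplicates (smallest chi-square per gene 63.5). Alternatives were the replicate block, DESeq2 1.42.0, other scaling, filters of none or 5 CPM in 3 libraries, the compared groups alone and leaving out each library. Leaving out a library without the block also unbalanced the replicate numbers, so such a shift can hold differences between the numbers. The averaged media contrast and the repeats of the blocked fits were added after the data were seen. The fits were tested on simulated data.

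The 9 genes, the 4 other lists and the naming rule were chosen with earlier results of these data known. Named were all 9 genes, the 4 highest other tight junction genes (1 of them is not reported here), called list genes, the 4 smallest p-values per list between replicate numbers, and the 2 most similar genes per gene (names starting with LOC, KEH36 or ENSBTAG left out). Counting error alone is covered by the limit for a count of 0. Close relatives may share reads, and overlapping genes cannot be separated without strand.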

Additional observations from a re-analysis of the deposited data

How the results depend on the processing

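Among the 9 members, the number called was 0 in all 10 comparisons of groups under each scaling, filter, tool and left-out library without the block, and the replicate block changed it in D6R against NHSD to 1 (CLDN1). In the averaged media contrast the block changed the members called from 0 to 1 (CLDN4); it changed no other call of the 9 genes. Starting from the blocked fit of D6R against NHSD, the members called were 2 with DESeq2 and the block (CLDN1 and CGN, which that tool also called in D6R against HSD, beside CLDN12 in D2R against HSD), 0 with the compared groups alone, and 0 to 1 without each library. For the averaged contrast they were 0 to 1 without each library. There CLDN4 was also called with DESeq2 and the block, and with the block on the compared groups alone. The fold change of CLDN3 in HSUD against NHSUD was -0.40 and ranged from -0.602 to 0.035 without each library, reversed without NHSUD replicate 3. That of CLDN4 in D6R against D2R was -0.26 without the block and ranged from -0.456 to 0.024, reversed without D2R replicate 3. With the block and all libraries it was -0.24 ± 0.12 (log2 ± SE). Of 80 fitted values (8 genes, 10 comparisons), 44 changed sign in some setting, 13 of them outside the fits that left out a library, and the largest of the 44 was 0.40 (log2). Over all genes, those called rose from 2 to 220 in D6R against NHSD, from 10 to 496 in D6R against HSD and from 0 to 122 in the averaged contrast with the block. DESeq2 called 39, 88 and 37 without the block, and 691, 1290 and 299 with it. In HSUD against NHSUD, HSD against NHSD, D2R against NHSD and D2R against HSD, the genes called were 19, 15, 12 and 8, with the block 96, 84, 34 and 59, with DESeq2 84, 61, 33 and 40, and with the compared groups alone 9, 11, 0 and 4. The causes of these changes were not tested. CLDN7 was limited by depth in all comparisons.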
